A study of Mus musculus with 14 samples.

Results

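Th2 cells labelled as Ago1, Ago3 and Ago4 knockout were compared with wild-type Th2 cells at the later of the 2 culture times in the series. The comparison takes the 3 libraries titled as wild type and the 3 titled as Ago134 at 14 days, chosen by title, which makes 6 of 14 libraries. Per the labels, both groups are C57BL/6J, and the cells are CD4+ TCRb+ T cells sorted from splenocytes. The series text describes naive cells of littermates that were activated and polarized to the Th2 type in culture, and it gives the later time in 1 place as 15 days. The wild-type group carries no stated allele, and the knockout group carries the Ago1, Ago3 and Ago4 alleles together. Which parts of the 3 genes were deleted, and whether in T cells alone or in the whole animal, is not stated in the labels. Whether a group's libraries are from different animals or cultures is unstated, so p-values measure the spread between libraries, which may be technical. The main fit estimates that spread over all 14 libraries of the series, not over the 6 compared libraries alone.

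Argonaute proteins hold microRNAs and bring them to messenger RNAs, which are then translated less and degraded faster. Ago2 is the member that can also cut its target, and it was not targeted here. Naive CD4 T cells that receive IL-4 signal through the IL-4 receptor, STAT6 and the transcription factor GATA3 to become Th2 cells, while IL-2 signals through STAT5 to sustain their growth. On activation T cells divide and lose much of the gene expression of the naive state.

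The 6 libraries held 27963051 to 34918513 counted reads, with reads on 12632 to 13241 genes each. Ago1 had reads in all wild-type libraries (2.07 to 3.72 CPM, reads scaled to a common library size) and 2 reads in all in the 3 knockout libraries, an edgeR log2 fold change of -6.92 ± 0.72 (SE, -7.13 without wild-type library 3). The other target genes kept reads in the libraries labelled knockout: Ago3 had 138 reads there and 261 in wild type, and Ago4 had 381 and 137. Neither difference was called in the edgeR fit of all 14 libraries, where only Ago1 bears out the label at the gene level. Ago3 was called lower in some other fits given below, and "knockout" below means the libraries so labelled. Since the deleted parts are not stated, these counts do not show whether the remaining Ago3 and Ago4 reads come from outside them. T cell markers were present in every library, at a summed level of 7624 to 8701 CPM in wild type and 8654 to 11163 CPM in knockout over 12 genes, and 0 of these 12 genes passed the test. Wild-type library 3 stood apart from the other wild-type libraries. On the first principal component, which carried 50% of the variance, wild-type libraries 1 and 2 lay at -55.4 and -88.9. Wild-type library 3 lay at 39.2, among the knockout libraries at 11.2 to 49.7. On the second component (23.1%) it lay at -54.1, nearest to wild-type library 1 at -34.4, while wild-type library 2 was at 20.3 and the knockout libraries at -9.89 to 49.7. Across genes its log2 CPM correlated with the knockout libraries at a Pearson r of 0.938 to 0.951, and with wild-type libraries 1 and 2 at 0.935 and 0.901, while libraries 1 and 2 correlated with each other at 0.966. Genes are not independent replicates, so these correlations are descriptions. For that reason the called genes and the lists below are also given without that library.

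**Figure D1:**
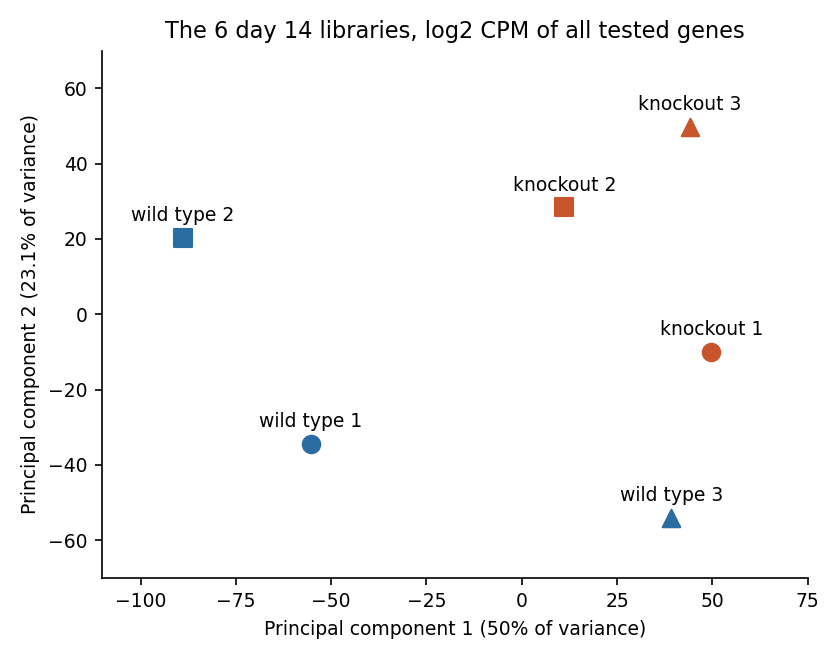
First and second principal components (percent of variance on each axis) of log2 CPM over all tested genes in the 6 day 14 libraries, wild type in blue and knockout in orange, with the marker shape giving the library number. Wild-type library 3 (39.2 on the first component) lies on the side of the knockout libraries (11.2 to 49.7), away from wild-type libraries 1 and 2 (-55.4 and -88.9).

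Of 11591 tested genes, 165 differed between genotypes at a Benjamini-Hochberg adjusted p under 0.05 in edgeR's quasi-likelihood test (1.42%), 98 higher (0.845%) and 67 lower (0.578%) in knockout. The highest and lowest libraries of the 2 groups did not overlap for 1733 genes (15%), and for 164 of the 165 called genes. The exception was Spry1, an inhibitor of growth factor signalling, at 10.5 to 16.3 CPM in wild type and 15.7 to 70.2 CPM in knockout. Without wild-type library 3, 2640 of 11755 tested genes were called (22.5%), 1477 higher (12.6%) and 1163 lower (9.89%), and all 165 genes were again called in the same direction. These shares, 12.6% and 9.89%, are the background for the list counts given without that library below. Of the genes called in that fit and tested in both, 1469 were higher, and for 1179 of these (80.3%) the omitted library lay nearer the knockout mean than the mean of wild-type libraries 1 and 2. The same held for 958 of 1161 lower genes (82.5%). On a scale from 0 (mean of wild-type libraries 1 and 2) to 1 (knockout mean), library 3 had a median position of 0.93 over the higher and 0.89 over the lower genes.

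**Figure D2:**
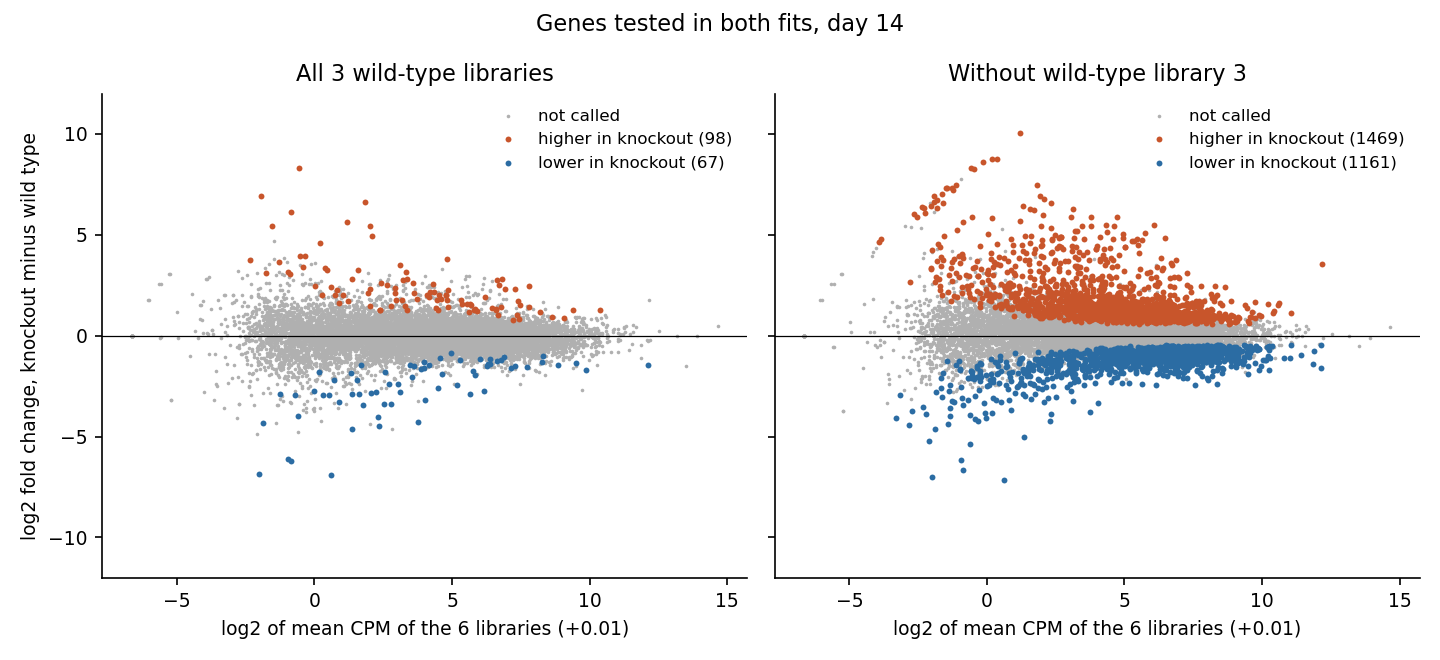
Log2 fold change (knockout minus wild type) against the log2 of the mean CPM of the 6 libraries, for genes tested in both fits, with all libraries (left) and without wild-type library 3 (right). Orange and blue points are genes called higher and lower, 98 and 67 on the left, 1469 and 1161 on the right.

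The 165 calls depended on which libraries entered the fit. Fitted on the 6 day 14 libraries alone, edgeR called 0 genes at an adjusted p under 0.05, with 1157 at an unadjusted p under 0.05, and DESeq2 on all 14 libraries called 541 higher and 452 lower. Leaving out wild-type library 1 kept 49 of the 165 calls, wild-type library 2 50, knockout library 1 123, knockout library 2 159 and knockout library 3 42. Removing the trend over GC content and coding length kept 143. A term for 2 lane series kept 77. These series were inferred here from the order of lane numbers and identifiers, and no label states what they stand for. All day 14 libraries but wild-type library 2 fell in the same series, with wild-type library 1 of day 7, so series and day largely coincide. In none of these fits did a called gene change direction. A core of 33 genes was called in all 6 fits that left out 1 library, 25 higher and 8 lower, and the number of those 6 fits that called a gene is given beside its value.

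Some genes known from naive and resting T cells were higher in knockout, although most of the naive gene list was not called. Txk (ENSMUSG00000054892, GRCm38 chromosome 5, 72695978 to 72752777), a Tec family kinase gene of T cell receptor signalling, stood at 2.30, 2.24 and 2.63 CPM in wild-type libraries 1 to 3. In the knockout libraries Txk stood at 17.2, 18.8 and 12.8 CPM. The groups were far apart and wild-type library 3 lay with its own group. The log2 fold change was 2.77 ± 0.28 (edgeR adjusted p = 0.000758), it was 2.84 without wild-type library 3, and all 6 fits called it. Ms4a4b and Ms4a6b, which encode tetraspanning membrane proteins and lie in a cluster of related genes on chromosome 19, followed the same pattern. Ms4a6b stood at 15.0 to 32.5 CPM in wild type and 115 to 239 CPM in knockout (2.75 ± 0.32, edgeR adjusted p = 0.00128). Ms4a4b stood at 8.61 to 42.9 and 114 to 266 CPM (2.82 ± 0.49, edgeR adjusted p = 0.0125), and both were called in 6 of 6 fits, at 2.87 and 2.92 without wild-type library 3. Reads of these near copies could be split between family members, so the values of single Ms4a genes are uncertain.

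P2ry1, a purine receptor gene (ENSMUSG00000027765, chromosome 3, 61002795 to 61008982), stood at 6.06 to 8.44 CPM in wild type and 26.1 to 46.5 CPM in knockout (2.14 ± 0.27, edgeR adjusted p = 0.00177, 6 of 6 fits). Gramd3 stood at 10.1 to 12.5 and 35.0 to 60.8 CPM (2.02 ± 0.23, edgeR adjusted p = 0.00128, 6 of 6 fits). Both genes kept wild-type library 3 at or near the low end of the wild-type values. Dapl1 was close to absent in wild type at 0.0618 to 0.149 CPM and stood at 0.814 to 2.19 CPM in knockout (3.94 ± 0.58, edgeR adjusted p = 0.00642, 6 of 6 fits). Id3, an inhibitor of E proteins, stood at 2.81 to 4.39 and 9.74 to 10.2 CPM (1.45 ± 0.26, edgeR adjusted p = 0.0156, 4 of 6 fits). Gpr183, the oxysterol receptor that positions T cells in lymphoid tissue, stood at 17.2 to 35.1 and 57.7 to 107 CPM (1.52 ± 0.27, edgeR adjusted p = 0.0127, 5 of 6 fits). With the GC and length trend removed Gpr183 was at 1.06 and was not called (edgeR adjusted p = 0.0630). Ly6c1, a surface protein gene of resting and memory T cells with a near copy, stood at 3.81 to 5.95 and 11.8 to 27.5 CPM (2.13 ± 0.45, edgeR adjusted p = 0.0346, 2 of 6 fits). All of these stayed called when wild-type library 3 was left out, at 2.01 for P2ry1, 1.98 for Gramd3, 3.72 for Dapl1, 1.29 for Id3, 1.29 for Gpr183 and 2.04 for Ly6c1.

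The wider list of naive genes moved less. Of 19 tested genes in the list of naive and central memory genes, 3 were called higher, Dapl1 and Id3 among them, and 0 lower, 11 had a positive fold change, and the median log2 fold change was 0.17 beside 0.01 over all tested genes. Without wild-type library 3 the median was -0.13, with 6 called higher and 0 lower. Tcf7, the transcription factor gene of naive and memory T cells, stood at 34 to 261 CPM in wild type and 58.0 to 177 CPM in knockout (-0.24 ± 0.51, edgeR adjusted p = 0.819). Ccr7, the chemokine receptor for lymph node entry, stood at 177 to 635 and 398 to 466 CPM (0.18 ± 0.31, edgeR adjusted p = 0.767). Leaving out wild-type library 3 gave -0.71 for Tcf7 and -0.16 for Ccr7, neither of them called. For both genes the wild-type libraries spanned the whole knockout range.

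The day 7 libraries, which share no library with day 14, show where these genes started. Txk stood at 54.5 ± 10.5 CPM (SD) in 4 wild-type and 38.0 ± 8.70 CPM in 4 knockout libraries of day 7. P2ry1 stood at 86.6 ± 9.68 and 86.1 ± 17.2 CPM, Gramd3 at 152 ± 17.8 and 133 ± 14.9 CPM, and Ms4a6b at 349 ± 44.3 and 438 ± 76.8 CPM. The day 14 values of both genotypes lay below these levels for all 4 genes, and the wild-type values lay lower than the knockout values. The test of the interaction, which asks whether the genotype difference at day 14 differs from that at day 7, called all 4 genes: Txk at 3.29 ± 0.35 (edgeR adjusted p = 0.00169), Gramd3 at 2.21 ± 0.30 (0.0152), Ms4a6b at 2.42 ± 0.40 (0.0370) and P2ry1 at 2.15 ± 0.35 (0.0370). Interaction calls numbered 10 of 11591 genes (0.0863%), 0.0604% with a more positive and 0.0259% with a more negative difference at day 14.

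Segments of the T cell receptor alpha chain had mostly positive fold changes. Of 57 tested alpha variable segments 56 had a positive fold change, with a median of 1.01, and for 38 the 3 knockout libraries lay above the 3 wild-type libraries, beside 9.71% of all tested genes. The test called 4 of them higher (Trav14-1, Trav14-3, Trav4-3 and Trav7-4) and 0 lower, with log2 fold changes of 1.27 to 2.04, and 23 higher without wild-type library 3. Of the 4, Trav14-1 and Trav14-3 were called in 2 of 6 fits and Trav7-4 in 3. Trav4-3 stood at 1.90 to 2.54 CPM in wild type and 5.25 to 6.65 CPM in knockout (1.48 ± 0.28, edgeR adjusted p = 0.0186, 5 of 6 fits, 1.42 without wild-type library 3). Of 21 tested beta variable segments 0 were called, and their median was 0.14, with 1 called higher without wild-type library 3. Trac, the alpha constant region, stood at 479, 556 and 532 CPM in wild type and 1262, 748 and 925 CPM in knockout (0.91 ± 0.21, edgeR adjusted p = 0.0516), which missed the threshold, and it was called at 0.92 without wild-type library 3 (0.0183). Near-identical segments share reads, and with the trend over GC content and coding length removed Trac was at 0.12 (adjusted p = 0.730), Trav14-1 to 0.48 (0.308) and Trav4-3 to 0.89 (0.0591). Cd4, the coreceptor gene that defines the sorted cells, stood at 309, 395 and 333 CPM in wild type and 145, 231 and 166 CPM in knockout. All knockout values lay below all wild-type values, and the log2 fold change of -0.94 ± 0.22 missed the threshold (edgeR adjusted p = 0.0524). With the GC and length trend removed, where 2.32% of genes were called higher and 2.29% lower, Cd4 was called lower at -1.09 (adjusted p = 0.00568), and without wild-type library 3 at -0.96 (0.0161). In bulk RNA, fewer cells of a type and less RNA per cell cannot be told apart. Of the 38 tested genes of proximal T cell receptor signalling, Txk alone was called, and the median was -0.01. The fit without wild-type library 3 called 2 higher and 5 lower, beside 12.6% and 9.89% of all genes, with a median of 0.04.

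Ighm, the constant region of immunoglobulin M (ENSMUSG00000076617, chromosome 12, 113418558 to 113422730), stood at 815, 908 and 642 CPM in wild type and 2440, 1451 and 1775 CPM in knockout. The groups did not overlap (1.26 ± 0.20, edgeR adjusted p = 0.00835, 6 of 6 fits, 1.13 without wild-type library 3). Of the 15 B cell markers, 9 had 0 reads in all 6 libraries, among them Ms4a1 and Cd22, and the summed level of the list was almost all Ighm. Day 7 cultures had 2561 ± 252 CPM of Ighm in wild type and 2861 ± 194 CPM in knockout (0.16 ± 0.17, edgeR adjusted p = 0.591).

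Il4ra and both STAT5 genes were lower in knockout, while most other genes of IL-4 and IL-2 signalling were not called. Il4ra, whose product binds IL-4 (with another chain, IL-13) (ENSMUSG00000030748, chromosome 7, 125552120 to 125579474), stood at 6958, 7430 and 5361 CPM in wild type. In knockout Il4ra stood at 1391, 3767 and 2031 CPM, below every wild-type library (-1.46 ± 0.32, edgeR adjusted p = 0.0369, 2 of 6 fits, -1.59 without wild-type library 3). Stat5a and Stat5b, the neighbouring genes for the STAT proteins of IL-2 signalling, were lower together. Stat5b stood at 499.7, 505 and 274 CPM in wild type and 194, 255 and 193 CPM in knockout (-0.99 ± 0.23, edgeR adjusted p = 0.0447). Stat5a stood at 173, 161 and 90.8 CPM in wild type and 45.7, 81.7 and 49.2 CPM in knockout (-1.27 ± 0.28, edgeR adjusted p = 0.0398). For both genes wild-type library 3 lay between the other wild-type libraries and the knockout, 2 of 6 fits called them, and without that library the log2 fold changes were -1.23 and -1.50. Pim3, a kinase gene that STAT5 induces, stood at 117 to 181 and 59.4 to 92.1 CPM (-1.04 ± 0.23, edgeR adjusted p = 0.0411, 2 of 6 fits, -1.22 without wild-type library 3).

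Nfil3, a transcription factor gene that IL-4 induces in lymphocytes, was called in every fit that left out a library. Nfil3 stood at 1290, 1635 and 1378 CPM in wild type and 288, 453 and 602 CPM in knockout (-1.68 ± 0.26, edgeR adjusted p = 0.00823, 6 of 6 fits, -1.71 without wild-type library 3). Day 7 levels were 323 ± 76.2 CPM in wild type and 370 ± 38.4 CPM in knockout, and every day 14 wild-type library stood above both. The day 14 knockout libraries lay from below these levels (288 CPM) to above them (602 CPM). Epas1, the hypoxia factor gene HIF-2 alpha, stood at 67.8 to 106 and 7.59 to 35.4 CPM (-1.94 ± 0.44, edgeR adjusted p = 0.0447, 3 of 6 fits). Csf1, the growth factor of macrophages, stood at 178 to 425 and 82.9 to 155 CPM (-1.55 ± 0.32, edgeR adjusted p = 0.0309, 2 of 6 fits). Tnfrsf8, which encodes the activation receptor CD30, stood at 44.6 to 140 and 2.92 to 22.5 CPM (-2.88 ± 0.66, edgeR adjusted p = 0.0452, 2 of 6 fits). With wild-type library 3 left out these were at -1.81 for Epas1, -1.83 for Csf1 and -2.38 for Tnfrsf8, all called. Among 20 tested Th2 transcription factor genes 3 were called lower (Nfil3, Stat5a and Stat5b), 0 higher, with a median of -0.60. Among 22 JAK, STAT and SOCS genes the same 2 STAT5 genes were called, with a median of -0.29, and among 9 common gamma chain family receptors Il4ra was called and the median was 0.25. Of 15 Th2 surface genes Epas1 and Il4ra were called lower and the median was 0.10. Most genes of these wider lists did not pass. The fit without wild-type library 3 called 1 higher and 5 lower among the Th2 factors (median -0.70), 2 and 7 among JAK, STAT and SOCS genes (-0.12), 2 and 2 among the receptors (0.53), and 3 and 2 among the surface genes (0.36). That fit called 12.6% of all genes higher and 9.89% lower.

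No Th2 cytokine gene passed the test in the edgeR fit of all libraries, and neither did Gata3, the master regulator of Th2 cells. Gata3 stood at 411 to 476 CPM in wild type and 437 to 599.5 CPM in knockout (0.24 ± 0.17, edgeR adjusted p = 0.419). Il4 stood at 3.12, 5.01 and 15.9 CPM in wild type and 7.30, 9.42 and 12.4 CPM in knockout (0.27 ± 0.52, edgeR adjusted p = 0.798). Il10 stood at 7.70, 31.7 and 77.7 CPM in wild type and 5.97, 8.73 and 16.0 CPM in knockout (-1.93 ± 0.68, edgeR adjusted p = 0.138), and Il5 at 0.892 to 9.36 and 0.384 to 3.23 CPM (-1.31 ± 0.86, edgeR adjusted p = 0.394). Wild-type library 3 was the highest of the 3 for Il4, Il5 and Il10. Without it Il4 was at 1.25 (edgeR adjusted p = 0.0559), Il5 at -0.51, Il10 at -0.94 and Gata3 at 0.20, none of them called. With the GC and length trend removed and all libraries kept, Il10 was called lower (-2.42, edgeR adjusted p = 0.0281). Il13 had 11 reads over the wild-type and 6 over the knockout libraries and was not tested. Of 6 tested Th2 cytokine genes 0 were called, with a median of -0.75, and of 0.97 without wild-type library 3. With the GC and length trend removed 1 was called lower, both with and without that library.

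A pair of inhibitory receptors of T cells was lower in knockout. Tigit stood at 20.1, 44.1 and 24.0 CPM in wild type and 4.52, 2.14 and 2.89 CPM in knockout (-3.20 ± 0.63, edgeR adjusted p = 0.0240, 3 of 6 fits, -3.33 without wild-type library 3). Pdcd1, the gene for PD-1, stood at 11.5, 15.7 and 14.2 CPM in wild type and 1.18, 3.49 and 3.11 CPM in knockout (-2.41 ± 0.53, edgeR adjusted p = 0.0390, 2 of 6 fits, -2.39 without that library). In both genes wild-type library 3 lay between the other wild-type libraries. At day 7 Tigit stood at 1.93 ± 0.987 CPM in wild type and 7.09 ± 5.81 CPM in knockout, and the interaction was called at -5.09 ± 0.82 (edgeR adjusted p = 0.0370). Of 14 tested inhibitory receptors 2 were called lower and 0 higher, with a median of -0.53. Leaving that library out gave a median of 0.08, with 2 called higher and 4 lower, beside 12.6% and 9.89% of all genes.

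**Figure D3:**
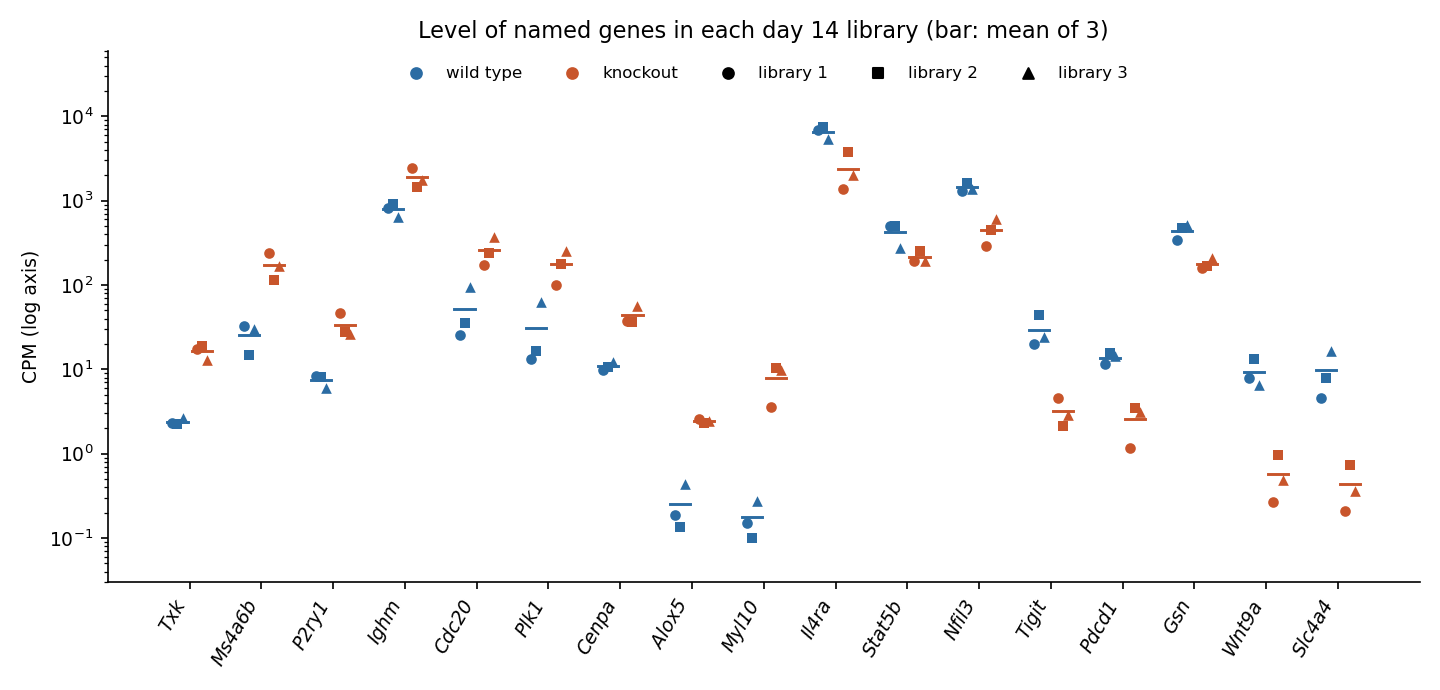
CPM on a log axis of 17 genes in each of the 3 wild-type (blue) and 3 knockout (orange) libraries of day 14, with the marker shape giving the library number and a bar at each mean. The groups do not overlap for any gene shown. Of the wild-type libraries, library 3 (blue triangle) lies nearest the knockout libraries for several genes, among them Cdc20, Plk1 and Stat5b, at 93.5, 63.4 and 274 CPM.

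Cell division genes were higher in knockout than in wild-type libraries 1 and 2, with wild-type library 3 in between or with the knockout. Cdc20, the activator of the anaphase-promoting complex, stood at 25.8, 35.4 and 93.5 CPM in wild type and 172, 239 and 369 CPM in knockout (2.33 ± 0.44, edgeR adjusted p = 0.0209, 3 of 6 fits, 3.08 without wild-type library 3). Plk1, the main mitotic kinase, stood at 13.1, 16.4 and 63.4 CPM in wild type and 100, 180 and 251 CPM in knockout (2.51 ± 0.55, edgeR adjusted p = 0.0362, 3 of 6 fits, 3.59 without that library). Cks1b, a partner of cyclin-dependent kinases, stood at 2.16, 2.04 and 5.90 CPM in wild type and 10.3, 19.2 and 33.0 CPM in knockout (2.62 ± 0.48, edgeR adjusted p = 0.0162, 3 of 6 fits, 3.31 without it). Cenpa, the histone variant of centromeres, differed from these in that library 3 stayed with its group: 9.70, 10.6 and 12.3 CPM in wild type and 37.1, 36.4 and 57.1 CPM in knockout (2.00 ± 0.29, edgeR adjusted p = 0.00535, 6 of 6 fits, 2.10 without library 3).

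The list of G2 and M phase genes shows the place of wild-type library 3 plainly. Its median level, as log2 CPM minus the mean of the 6 libraries, was -2.11 and -2.44 in wild-type libraries 1 and 2, 0.96 in wild-type library 3, and 1.01, 1.35 and 1.79 in the knockout libraries. Of 34 tested genes 4 were called higher and 0 lower, with a median log2 fold change of 1.83. Without wild-type library 3, 30 were called higher and 0 lower, with a median of 3.97. Ccnb1, cyclin B1, stood at 0.149 and 0.167 CPM in wild-type libraries 1 and 2, at 3.06 CPM in library 3 and at 2.57 to 4.92 CPM in knockout. Top2a, a topoisomerase of dividing cells, stood at 17.5, 5.54 and 148 CPM in wild type and 82.1 to 90.5 CPM in knockout, so library 3 exceeded every knockout library. Their tests with all libraries gave 1.69 ± 0.82 and 0.60 ± 0.79 (edgeR adjusted p = 0.248 and 0.696), and without library 3 both were called (4.50 and 2.91, adjusted p = 0.000764 and 0.00552). S phase genes stood at -0.98, -1.07 and 0.38 in wild type and -0.18, 0.73 and 1.07 in knockout, so here library 3 lay above knockout library 1. Of 44 tested S phase genes Rfc5, a subunit of the clamp loader, was called, with a median of 1.00, and 34 were called higher without library 3 (median 1.52).

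The G2 and M genes share promoter elements that the list did not use, and the 4 called members are shown for that reason. The sequences are RefSeq promoters of GRCm38.p6, 250 bases before to 50 bases after the start site, 5′ to 3′. Capitals mark matches to the CHR element (the motif TTTGAA or the motif TTCGAA) and to CCAAT, on either strand.
Cdc20 (chr4:118437294-118437593, minus strand): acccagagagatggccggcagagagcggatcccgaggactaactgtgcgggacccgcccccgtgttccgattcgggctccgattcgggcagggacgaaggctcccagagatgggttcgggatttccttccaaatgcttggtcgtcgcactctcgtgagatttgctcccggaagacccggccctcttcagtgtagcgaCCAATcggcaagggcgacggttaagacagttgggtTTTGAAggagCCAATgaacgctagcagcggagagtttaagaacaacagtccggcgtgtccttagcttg
Plk1 (chr7:122159185-122159484, plus strand): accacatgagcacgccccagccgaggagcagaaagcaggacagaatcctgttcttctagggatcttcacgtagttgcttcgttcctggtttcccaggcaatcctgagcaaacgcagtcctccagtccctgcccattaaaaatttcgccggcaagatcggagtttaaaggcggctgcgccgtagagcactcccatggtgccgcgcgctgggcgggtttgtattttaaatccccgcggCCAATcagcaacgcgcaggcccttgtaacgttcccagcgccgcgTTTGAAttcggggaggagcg
Cenpa (chr5:30666636-30666935, plus strand): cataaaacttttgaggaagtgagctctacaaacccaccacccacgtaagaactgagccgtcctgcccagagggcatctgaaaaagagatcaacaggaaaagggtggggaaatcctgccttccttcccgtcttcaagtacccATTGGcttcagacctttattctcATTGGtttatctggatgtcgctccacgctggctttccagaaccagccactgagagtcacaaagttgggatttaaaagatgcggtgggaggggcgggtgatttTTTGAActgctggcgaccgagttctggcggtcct
Cks1b (chr3:89418242-89418541, minus strand): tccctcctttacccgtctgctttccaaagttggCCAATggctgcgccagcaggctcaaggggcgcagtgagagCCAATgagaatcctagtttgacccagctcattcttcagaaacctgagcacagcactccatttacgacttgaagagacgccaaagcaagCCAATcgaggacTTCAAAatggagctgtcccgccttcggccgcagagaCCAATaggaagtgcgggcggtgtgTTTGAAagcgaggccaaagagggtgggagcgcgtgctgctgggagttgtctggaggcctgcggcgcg

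All 4 promoters hold both elements. Of 29 promoters of 28 G2 and M genes matched by symbol, 22 held a CHR match (75.9%), against 6316 of all 32851 promoters in the table (19.2%). CCAAT stood in 23 of the 29 (79.3%) against 37.4% of all promoters, and both together in 20 (69%) against 7.52%. E2F sites (the motif TTCGCGC, the motif TTGGCGC or the motif TTCCCGC, either strand) stood in 4 of the 29 (13.8%) against 8.07%. Among 11620 promoters of tested genes the shares were 13.6% for CHR, 37.7% for CCAAT and 14.4% for E2F. CHR and CCAAT are known from cell cycle promoters, and a match in such a window is a description of its letters.

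Other cell cycle genes were called outside these lists or with library 3 in place, named after their values were seen where no list holds them. Cdkn2c, the inhibitor p18 of the cyclin D kinases, stood at 9.89 to 11.9 CPM in wild type and 32.2 to 45.3 CPM in knockout (1.83 ± 0.22, edgeR adjusted p = 0.00144, 6 of 6 fits). H2afx, the histone variant of DNA damage signalling, stood at 47.6 to 63.3 and 96.0 to 160 CPM (1.29 ± 0.21, edgeR adjusted p = 0.00922, 6 of 6 fits). Arhgef39, a guanine nucleotide exchange factor gene, stood at 5.02 to 9.05 and 20.5 to 39.3 CPM (2.00 ± 0.31, edgeR adjusted p = 0.00823, 6 of 6 fits). Kif22, a chromosome kinesin, stood at 51.1 to 123 and 175 to 363 CPM (1.72 ± 0.31, edgeR adjusted p = 0.0156, 3 of 6 fits). Depdc1b stood at 2.90 to 11.2 and 30.8 to 39.3 CPM (2.57 ± 0.44, edgeR adjusted p = 0.0116, 4 of 6 fits). All 5 stayed called when wild-type library 3 was left out, at 1.92 for Cdkn2c, 1.18 for H2afx, 2.27 for Arhgef39, 2.19 for Kif22 and 3.52 for Depdc1b. Of 20 tested histone cluster genes, whose copies share reads, 3 were called higher (Hist1h1a, Hist1h1b and Hist1h3a) and 0 lower, with a median of 1.08, and 7 without wild-type library 3.

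**Figure D4:**
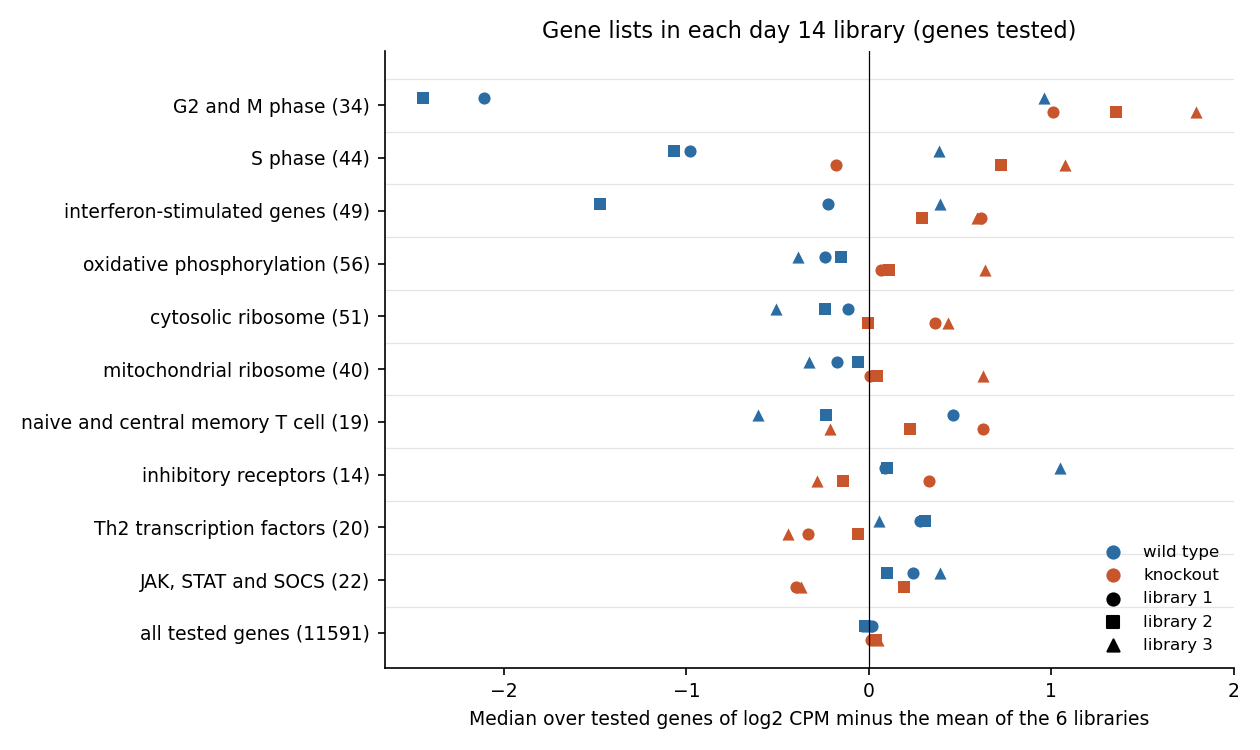
Median over the tested genes of each list (number in brackets) of log2 CPM minus the mean of the 6 libraries, one point per library, wild type in blue and knockout in orange. For G2 and M phase genes wild-type library 3 (0.96) lies by the knockout libraries (1.01 to 1.79), and for oxidative phosphorylation it has the lowest value (-0.39).

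The first steps of leukotriene synthesis and a prostaglandin receptor were higher in knockout, from low levels. Alox5, the lipoxygenase that starts leukotriene synthesis, stood at 0.186, 0.134 and 0.433 CPM in wild type and 2.60, 2.34 and 2.47 CPM in knockout (3.26 ± 0.44, edgeR adjusted p = 0.00321, 6 of 6 fits, 3.92 without wild-type library 3). Alox5ap, its activating protein, stood at 0.186, 0.200 and 0.278 CPM and at 3.22, 1.55 and 2.23 CPM (3.37 ± 0.64, edgeR adjusted p = 0.0209, 3 of 6 fits). Ptger3, a prostaglandin E2 receptor, stood at 1.08 to 3.37 and 10.4 to 24.4 CPM (3.18 ± 0.73, edgeR adjusted p = 0.0456, 3 of 6 fits). Leaving out wild-type library 3 gave 3.57 for Alox5ap and 3.81 for Ptger3, both called. Lta4h, the hydrolase that makes leukotriene B4, was at 428 CPM on average in wild type and 611 CPM in knockout and was not called (0.51, edgeR adjusted p = 0.178), but was without library 3 (0.66, 0.0444). The enzyme for cysteinyl leukotrienes, Ltc4s, had 0 reads in all 6 libraries. Of 16 tested lipid mediator genes Alox5, Alox5ap and Ptger3 were called higher and 0 lower, with a median of 0.16, and 5 higher and 1 lower without library 3 (0.24). The fit without library 3 called 12.6% of all genes higher and 9.89% lower.

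A pair of genes best known from mast cells was higher as well. Kit, the stem cell factor receptor (ENSMUSG00000005672, chromosome 5, 75574916 to 75656722), had 6 reads over the 3 wild-type libraries and stood at 9.45, 9.59 and 2.02 CPM in knockout (6.63 ± 1.11, edgeR adjusted p = 0.0115, 5 of 6 fits). Cpa3, a mast cell protease gene, stood at 5.58, 1.00 and 4.70 CPM in wild type and 120, 12.9 and 23.8 CPM in knockout (3.80 ± 0.77, edgeR adjusted p = 0.0270, 4 of 6 fits), with knockout library 1 far above the others. They were at 7.47 and 4.00 without wild-type library 3. Of the 17 mast cell and basophil markers 8 had 0 reads in all 6 libraries (Cma1, Mcpt1, Mcpt2, Mcpt4, Mcpt8, Mrgprb1, Ms4a2 and Prss34). Of 7 tested markers Cpa3 and Kit were called, and 4 had a positive fold change. Their median was 0.10, and 0.94 without wild-type library 3. Hdc, the enzyme gene of histamine synthesis, was at -0.36 ± 0.47 (edgeR adjusted p = 0.696). The list's summed level was 72.6 to 208 CPM in wild type and 180 to 281 CPM in knockout. At day 7 Kit stood at 3.47 ± 1.99 CPM in wild type and 1.14 ± 0.956 CPM in knockout, and the interaction was called at 8.23 ± 1.32 (edgeR adjusted p = 0.0370).

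A further 5 genes that passed in every fit leaving out a library came from varied pathways. Hsd11b1, which regenerates active glucocorticoid, stood at 19.4, 35.0 and 69.4 CPM in wild type and 186, 168 and 261 CPM in knockout (2.31 ± 0.36, edgeR adjusted p = 0.00823, 6 of 6 fits). Myl10, a myosin light chain gene, stood at 0.100 to 0.278 CPM in wild type and 3.60 to 10.4 CPM in knockout (5.45 ± 0.70, edgeR adjusted p = 0.00230, 6 of 6 fits). Hes1, a target of Notch, stood at 0.367 to 0.818 and 3.69 to 7.27 CPM (3.24 ± 0.51, edgeR adjusted p = 0.00823, 6 of 6 fits). Fbln1, an extracellular matrix gene, stood at 7.48 to 13.6 and 24.0 to 59.9 CPM (2.26 ± 0.36, edgeR adjusted p = 0.00864, 6 of 6 fits). Rtkn2 stood at 0.929 to 1.92 and 5.85 to 7.99 CPM (2.33 ± 0.36, edgeR adjusted p = 0.00823, 6 of 6 fits). The groups of these 5 genes did not overlap. Leaving out wild-type library 3 gave 2.91 for Hsd11b1, 5.95 for Myl10, 3.18 for Hes1, 2.18 for Fbln1 and 2.71 for Rtkn2. In polyamine synthesis, Odc1, the first enzyme, was higher at 186 to 326 CPM against 82.6 to 101 CPM (1.53 ± 0.26, edgeR adjusted p = 0.0116, 3 of 6 fits). With the GC and length trend removed Odc1 was at 1.16 and was not called (edgeR adjusted p = 0.0510). Azin2, an inhibitor of the protein that degrades ODC1, was lower at 3.37 to 15.5 CPM against 47.4 to 70.7 CPM (-2.45 ± 0.46, edgeR adjusted p = 0.0203, 4 of 6 fits). Slc7a1, the importer of arginine, from which ornithine is made, was higher at 49.4 to 87.4 CPM against 25.2 to 33.0 CPM (1.18 ± 0.24, edgeR adjusted p = 0.0262, 3 of 6 fits). These 3 calls did not hold in every fit, they held without wild-type library 3 (1.62 for Odc1, -2.33 for Azin2, 1.23 for Slc7a1), and Azin2 was chosen after its values were seen.

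Among the genes with the largest decreases were a transporter, a matrix protein and a secreted signal. Slc4a4, a bicarbonate transporter, stood at 4.61, 7.98 and 16.5 CPM in wild type and 0.207, 0.725 and 0.362 CPM in knockout (-4.49 ± 0.78, edgeR adjusted p = 0.0125, 5 of 6 fits). Adamtsl3, a matrix protein gene, stood at 17.4, 19.1 and 40.4 CPM and at 0.443, 2.21 and 1.36 CPM (-4.26 ± 0.74, edgeR adjusted p = 0.0130, 5 of 6 fits). Wnt9a, a secreted signal, stood at 7.81, 13.4 and 6.55 CPM and at 0.266, 0.956 and 0.482 CPM (-4.02 ± 0.68, edgeR adjusted p = 0.0116, 5 of 6 fits). Wild-type library 3 was the highest library for the transporter and for the matrix gene, on the side away from the knockout. Plcd1, a phospholipase C gene, stood at 115 to 117 CPM in wild type and 30.1 to 46.4 CPM in knockout (-1.51 ± 0.24, edgeR adjusted p = 0.00823, 6 of 6 fits). Gsn, the actin-severing protein gelsolin, stood at 343 to 509 and 161 to 211 CPM (-1.30 ± 0.19, edgeR adjusted p = 0.00624, 6 of 6 fits). With the GC and length trend removed Gsn was at -0.87 and was not called (edgeR adjusted p = 0.0688). All 5 stayed called when wild-type library 3 was left out, at -3.87 for Slc4a4, -3.77 for Adamtsl3, -4.22 for Wnt9a, -1.52 for Plcd1 and -1.18 for Gsn.

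Genes of oxidative phosphorylation and of ribosomes had mostly small positive fold changes, with few calls in the fit of all libraries. All 56 tested oxidative phosphorylation genes had a positive fold change, with a median of 0.59, and 32 of them had no overlap between groups, beside 9.71% of all tested genes, while 1 was called. The fit without wild-type library 3 called 16 of them higher, beside 12.6% of all genes, with a median of 0.54. That gene, Atp5c1, a subunit of the ATP synthase, stood at 230 to 316 CPM in wild type and 415 to 710 CPM in knockout (0.92 ± 0.21, edgeR adjusted p = 0.0439, 3 of 6 fits, 1.03 without that library). The median of 51 cytosolic ribosome genes was 0.58 and that of 40 mitochondrial ribosome genes 0.43, each with 0 called. With that library left out 5 and 4 were called higher, with medians of 0.47 and 0.34. These lists hold short coding sequences, and each doubling of coding length went with a log2 CPM slope of 0.167, 0.017 and 0.207 in wild-type and -0.103, 0.031 and -0.319 in knockout libraries. With the trend over GC content and length removed, the 3 medians were 0.19, 0.20 and 0.17, and Atp5c1 was at 0.35 (adjusted p = 0.460). Counts of ribosomal genes with near-identical copies are uncertain. Interferon-stimulated genes had a median of 0.56 over 49 tested genes with 0 called, and of 1.10 with 5 called higher without wild-type library 3. Their median level was -0.22, -1.48 and 0.39 in wild type and 0.61, 0.29 and 0.59 in knockout. In that list wild-type library 2 stood alone at the low end, and it is also the only day 14 library of its lane series.

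Markers of cytotoxic cells were variable in both groups. Gzmb, granzyme B, stood at 284, 938 and 5148 CPM in wild type and 2785, 6431 and 12200 CPM in knockout (1.75 ± 0.91, edgeR adjusted p = 0.276, 3.55 and 0.0179 without wild-type library 3), so wild-type library 3 lay within the knockout range. Nkg7, a granule protein gene, stood at 2.19, 1.97 and 3.74 CPM in wild type and 4.43, 20.4 and 29.7 CPM in knockout (2.78 ± 0.57, edgeR adjusted p = 0.0309, 3 of 6 fits, 3.12 without library 3). Of 10 tested cytotoxic and NK cell genes Nkg7 was called (5 without library 3), and Ncr1, Klrk1, Klrc1, Klra1 and Gzmk had 0 reads in all 6 libraries. The summed level of this list was 535 to 8790 CPM in wild type and 2956 to 12947 CPM in knockout, and its part in the other results was not tested. Of 25 myeloid and dendritic cell markers 10 had 0 reads in all libraries. Mgl2 was called higher at 1.19 to 2.44 against 0.149 to 0.525 CPM (2.45 ± 0.46, edgeR adjusted p = 0.0186, 3 of 6 fits, 3.11 without library 3), and Fcgr3 lower at 0.422 to 0.593 against 1.55 to 2.07 CPM (-1.82 ± 0.38, edgeR adjusted p = 0.0309, 2 of 6 fits, -1.90 without library 3).

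Several called genes lie near the targeted locus, and the difference in share was not tested. Of 232 tested genes within 10 Mb of the Argonaute genes on chromosome 4, other than those genes, 10 were called (4.31%), against 154 of 11356 elsewhere (1.36%). Cap1, an actin regulator (122859047 to 122886056), stood at 59.1 to 75.7 CPM in wild type and 234 to 556 CPM in knockout (2.44 ± 0.27, edgeR adjusted p = 0.00128, 6 of 6 fits). Hdac1, a histone deacetylase, stood at 23.2, 38.7 and 54.3 CPM and at 5.55, 5.8 and 7.66 CPM (-2.61 ± 0.31, edgeR adjusted p = 0.00128, 6 of 6 fits). Ndufs5, a subunit of complex I, was lower by -2.91 ± 0.50 (edgeR adjusted p = 0.0116, 6 of 6 fits), and Dcdc2b had 43 reads in wild type and 0 in knockout, at least 15.6-fold lower, taking 3 reads over the group as the floor (6 of 6 fits). Without wild-type library 3 Cap1 was at 2.48, Hdac1 at -2.29 and Ndufs5 at -3.01, all called. Hdac1 and Ndufs5 have near-identical copies and their values are uncertain. At day 7 Cap1 (2.17), Hdac1 (-2.73) and Ndufs5 (-2.68) differed by about as much as at day 14. The remaining 6 genes were Azin2, Cdc20, Id3, Rnf19b, Stmn1 and Tmem35b, of which Cdc20 and Id3 are described above. Near these genes, Ago3 stood at 2.04 to 4.42 CPM in wild type and 1.21 to 1.57 CPM in knockout, with no overlap (-1.01 ± 0.35, edgeR adjusted p = 0.136). Ago3 was called lower by DESeq2 (-1.02, DESeq2 adjusted p = 0.0459) and with the GC and length offset (-0.99, edgeR adjusted p = 0.0457). It was not called without wild-type library 3 (-0.55, 0.207). Ago4 stood at 0.372 to 2.81 and 2.38 to 4.76 CPM (1.42 ± 0.55, edgeR adjusted p = 0.17) and was called without wild-type library 3 (2.30, 0.0115). Ago2, on chromosome 15, stood at 111, 113 and 126 CPM in wild type and 90.4, 70.1 and 71.1 CPM in knockout (-0.59 ± 0.18, edgeR adjusted p = 0.0901), with no overlap, and was called without library 3 (-0.53, 0.0474). Of 30 tested genes of microRNA processing and silencing 0 were called, with a median of -0.28, and 1 higher and 2 lower without library 3 (-0.09). Sf3b3, the splicing factor gene named in the series title, was at -0.38 ± 0.34 (edgeR adjusted p = 0.530), and Nisch, which encodes an integrin-binding protein, at -0.64 ± 0.27 (0.188). They were at -0.34 (0.544) and -0.83 (0.0391) without library 3.

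The day 14 differences were mostly smaller at day 7. The 165 genes had a median absolute log2 fold change of 2.03 at day 14, and, signed by their day 14 direction, a median of 0.28 at day 7. They were chosen by their day 14 test, which by itself favours smaller values at day 7. At day 7, where 11 genes were called in all (0.0949%, 0.0518% higher and 0.0431% lower), 8 of the 165 were called (Ago1, Cap1, Hdac1, Mgl2, Ndufs5, Slc30a3, Tyr and nonagouti). Of the 165, 120 had the same sign on both days and 32 passed an unadjusted p under 0.05 in the same direction at day 7. Over all 11591 tested genes, 2716 (23.4%) passed that threshold at day 7 in either direction. The interaction was called for 8 of the 165 genes. A gene called at day 14 and not at day 7 is not shown to differ between the days unless its interaction was called.

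**Figure D5:**
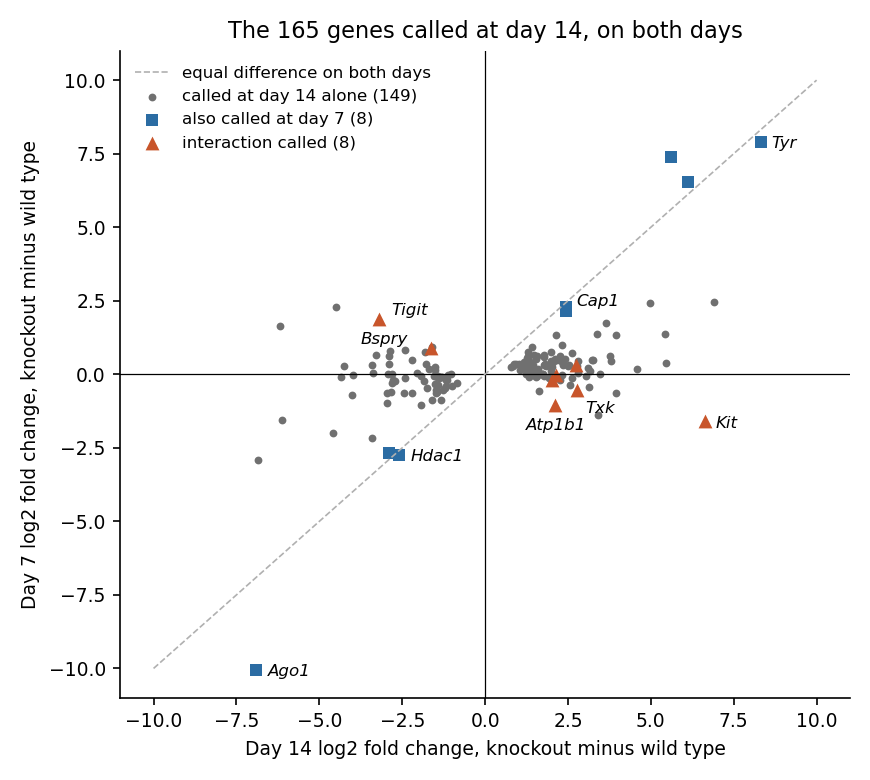
Log2 fold change (knockout minus wild type) at day 7 (vertical axis) against that at day 14 (horizontal axis) for the 165 genes called at day 14, with blue squares for the 8 also called at day 7, orange triangles for the 8 whose interaction was called, and a dashed line where both days are equal. Most points lie near the horizontal line at 0, while Cap1 (2.44 and 2.17) and Hdac1 (-2.61 and -2.73) lie by the dashed line.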

How the data were processed

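Bulk RNA was sequenced from 14 libraries of cultured Th2 cells, of which the 6 of day 14 are compared here. The authors deposited 1 table per library with read counts and RPKM values per gene, per the file headers. The deposited RPKM and width columns served only to check the tables. GSNAP and GRCm38 are named in the submitters' processing notes; the counting tool, annotation and strandedness: not given in the sources used here. Depth per library and the range of genes with reads stand in the text, and intervals and floors cover counting error only. Counts were fitted with edgeR 4.0.16 in R 4.3.3 (TMM factors, filterByExpr, robust quasi-likelihood, 4 group means over all 14 libraries), with Benjamini-Hochberg adjustment over all 11591 tested genes. The fit was tested on simulated data. CPM values are counts over TMM-scaled library sizes, and the floor for 0 reads is 3 reads.

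Alternatives were other scalings, no filter, CPM of at least 1 in 3 libraries, the 6 day 14 libraries alone, DESeq2 1.42.0, limma-voom 3.58.1 with and without sample weights, a replicate block, a lane series term, a GC and length offset, a 1.5-fold threshold, and each day 14 library left out. The 6 libraries without wild-type library 3, and the offset without it, were chosen after seeing the data. Named genes were the Argonaute, Th2 and title genes, the 12 called genes with the highest and 12 with the lowest fold change at a mean of at least 5 CPM without overlap, up to 4 called members per list, each marker list's most abundant gene, and genes called without every library. Genes outside this rule were chosen after their values were seen. The comparison and the gene lists were chosen with earlier results of these data known. No pair of libraries agreed within sampling noise. Some genes that the rule names are not reported here.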

Additional observations from a re-analysis of the deposited data

Results flagged for a closer look

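The genotype difference differed between day 14 and day 7 for 10 genes by the interaction test (edgeR quasi-likelihood, Benjamini-Hochberg adjusted), given as day 14 minus day 7 log2 fold change. Of these, 6 are described above: Txk at 3.29, Gramd3 at 2.21, Ms4a6b at 2.42, P2ry1 at 2.15, Kit at 8.23 and Tigit at -5.09. Atp1b1, a sodium pump subunit, was at 3.13 ± 0.54 (adjusted p = 0.0479), with 1.75 to 3.49 CPM in wild type and 10.7 to 13.8 CPM in knockout at day 14, against 11.3 ± 3.93 and 5.52 ± 1.94 CPM at day 7. Its day 14 difference was called in 3 of 6 fits that left out a library. Bspry was at -2.51 ± 0.41 (adjusted p = 0.0370), with 19.6 to 25.2 and 5.82 to 8.23 CPM at day 14, against 3.27 ± 0.445 and 6.05 ± 2.12 CPM at day 7, and its day 14 call also held in 3 of those 6 fits. Batf3, a transcription factor gene, was at -3.84 ± 0.64 (adjusted p = 0.0372), and its day 14 difference of -1.81 ± 0.47 was not called (adjusted p = 0.0657). Zbtb8a, on chromosome 4, was at 4.13 ± 0.68 (adjusted p = 0.0370), and its difference of -4.83 ± 0.51 at day 7 was called (adjusted p = 0.000529) while that at day 14 was not. Of the 10, Txk alone was called in all 6 fits that left out a day 14 library.

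In the 4 knockout libraries of day 7 the highest Tigit value, 15.8 CPM, lay far from the others. It was the only group of 22 tested whose gap exceeded Dixon's 95% critical value for 4 samples, and chance flags about 1 group in 20.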

How the results depend on the processing

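Counts of called genes moved strongly with the model, and directions of called genes did not. Against 98 higher and 67 lower, scaling by total counts gave 168 higher, the 6 libraries alone 0 and 0, DESeq2 541 and 452, limma-voom 242 and 178, limma-voom with sample weights 1124 and 836, the lane series term 52 and 27, the GC and length offset 268 and 264, and a fold threshold of 1.5 26 and 13. Added after seeing the data, the 6 libraries minus wild-type library 3 gave 137 higher and 36 lower, and the offset minus that library 953 and 962. Leaving out 1 library gave 31 to 1477 higher and 9 to 1163 lower. Interaction calls, 10 in the reported fit, numbered 163 by DESeq2, 479 by limma-voom with weights, 1 with the lane series term, 77 with the offset, 431 with the offset minus wild-type library 3, and 1 to 380 with 1 library left out. The cause of these shifts was not tested. Without wild-type library 3 the median of all genes was 0.13 in place of 0.01.

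A replicate block on the 6 libraries gave 28 higher and 30 lower calls and kept 37 of the 165. Same-numbered libraries deviated together with correlations of 0.194, 0.350 and 0.049, in the order of their numbers. The value of 0.350 was the highest of all pairs, and wild-type library 1 also correlated best with its same-numbered knockout library. Libraries 3 did not correlate best with each other, and wild-type library 3 was nearest to knockout library 1 (0.226). With so few libraries a group, these correlations cannot decide whether the numbers pair the libraries.

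Genes without a call changed sign as follows: Ccr7 to -0.19 by limma-voom with weights and -0.16 without wild-type library 3 (-0.16 to 0.75 over single libraries left out), Il4 to -0.25 with the offset and -0.11 without wild-type library 1 (-0.11 to 1.25), Il5 to 0.13 by limma-voom with weights, Nisch to 0.18 with the offset, and Tcf7 to 0.07 by limma-voom, 0.09 without knockout library 3 and 0.54 without wild-type library 1 (-0.71 to 0.54). In the 6 libraries alone, all 68 examined genes that had a call and were tested lost it. No interaction can be had from day 14 libraries alone. With 3 libraries a group, and a common biological coefficient of variation of 0.354, small differences are not detectable.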

Other observations

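Over all UTR lengths, genes with a seed match of a microRNA known from T cells had a median fold change slightly below that of other genes. The gap varied between fits, and without wild-type library 3 it had the other sign in a UTR length class given below. MicroRNA levels were not measured here. In a description added after seeing the data, 8-base seed matches of 15 microRNAs were counted in 11032 genes with a 3′ UTR of at least 50 bases. The 4299 genes with at least 1 match had a median log2 fold change of -0.09, with 25 called higher and 24 lower, and the 6733 genes without one had 0.06, with 64 and 42. Genes with a match have longer UTRs (median 1840 against 558 bases). Among the genes with the longest UTRs (2073 with and 685 without a match) the medians were -0.15 with and -0.06 without a match. Without wild-type library 3 these medians were 0.09 and 0.14. In the next shorter UTR class they were -0.08 and -0.06, and 0.11 and 0.03 without wild-type library 3. Over all genes they were 0.10 and 0.13 without that library, and with the GC and length offset -0.11 and 0.02. With the offset and without that library they were -0.09 and 0.00, and at day 7 they were -0.16 and 0.06. By microRNA the medians ran from -0.23 (miR-92a-3p) to -0.01 (miR-142a-5p), with -0.04 for the 330 genes with a miR-155-5p match. Without wild-type library 3 they ran from -0.08 (miR-92a-3p) to 0.33 (miR-142a-5p), with 0.30 for miR-21a-5p and 0.27 for miR-181a-5p. The median over all genes with a UTR was 0.12 in that fit. It called 81 higher and 32 lower of 509 genes with a miR-142a-5p match, beside 1406 and 1141 of all 11032. With the GC and length offset and without that library, miR-142a-5p, miR-21a-5p and miR-181a-5p were at -0.04, -0.07 and -0.08. The median over all genes with a UTR was then -0.03. No test was made, and a match is not a measured site.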
